A study of Mus musculus with 17 samples.

Results

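In all, 10 genes of the Notch pathway were followed across lines of C2C12, a mouse myoblast cell line, that expressed SRF or a fusion of SRF. They were taken by symbol from the table of raw counts, and the list was drawn up with earlier results of these data known. The members are the receptors Notch1, Notch2 and Notch3, the ligands Jag1, Jag2 and Dll1, and the target genes Hes1, Hey1, Heyl and Nrarp. All 10 symbols were found among the 15062 genes of the table. The labels name 6 lines after what they expressed: the empty retroviral vector pMSCV, used here as control, SRF, and the fusions SRF-RELA, SRF-PDGFRB, SRF-ICA1L and SRF-FOXO1. SRF, serum response factor, is a transcription factor of muscle and of the actin cytoskeleton, and each fusion is named for SRF and a partner gene. Every line had 3 libraries except SRF-PDGFRB, which had 2, and all were grown in medium with 10% fetal bovine serum. Nothing in the labels says whether a line is 1 clone, or whether its libraries came from separate cultures, so p-values measure the spread between these libraries alone.

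In the Notch pathway, a ligand of the Jagged or Delta-like family on one cell binds a Notch receptor on its neighbour, and the receptor is cut to release its intracellular part. That part enters the nucleus and, with the DNA-binding protein RBPJ and a Mastermind coactivator, switches on targets such as the HES and HEY repressors. In muscle, Notch activity keeps satellite cells and myoblasts undifferentiated and holds back the myogenic factor MyoD. Hes1, Hey1 and Heyl encode basic helix-loop-helix repressors, and Nrarp encodes a small ankyrin-repeat protein that dampens Notch signalling in return.

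HES and HEY repressors bind sequences of the form CACGNG, so the promoters of the members were searched for it to ask which members share such letters near their start. RefSeq promoter windows (GRCm38.p6, 250 bases before the start and 50 after) matched 7 of the 10 members: Notch1, Notch2, Notch3, Jag1, Jag2, Dll1 and Nrarp. The bases upstream of the start in both RefSeq and the gene annotation are shown 5′ to 3′ for a receptor, a ligand and a target, with capitals marking CACGNG on either strand. They lie on chr17:32166891-32167140 (Notch3, minus strand), chr2:137116645-137116770 (Jag1, minus strand) and chr2:25180508-25180757 (Nrarp, plus strand).
Notch3: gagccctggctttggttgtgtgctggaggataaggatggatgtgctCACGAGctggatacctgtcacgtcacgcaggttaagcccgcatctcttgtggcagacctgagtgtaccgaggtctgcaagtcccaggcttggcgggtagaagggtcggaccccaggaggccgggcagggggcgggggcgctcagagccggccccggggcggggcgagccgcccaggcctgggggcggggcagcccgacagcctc
Jag1: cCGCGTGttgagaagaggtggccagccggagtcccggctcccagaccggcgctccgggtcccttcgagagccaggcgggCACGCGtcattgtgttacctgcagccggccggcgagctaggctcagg
Nrarp: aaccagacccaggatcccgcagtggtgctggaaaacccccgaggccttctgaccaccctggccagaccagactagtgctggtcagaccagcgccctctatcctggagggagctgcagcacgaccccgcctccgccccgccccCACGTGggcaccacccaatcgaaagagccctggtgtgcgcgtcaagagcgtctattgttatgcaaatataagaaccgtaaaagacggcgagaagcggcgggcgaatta

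CACGNG was found in the window of 6 of the 7 members, all but Notch1, and in 27.5% of all 32851 RefSeq promoter windows of this length. The 7 members had 8 windows, so a count of members and a share of windows are not the same measure. The G and C content of all windows was not computed, so no enrichment can be read from the values for this or the other motifs. In Notch3 the match began 204 bases before the start, in Nrarp 108 bases before it, and Jag1 had a pair of matches that began 249 and 171 bases before it. In Jag2 it began 19 bases after the start. These distances are from the RefSeq start, which in Jag2 lies inside the annotated gene, 281 bases from its start. For Notch1 the RefSeq and annotated starts lie 12841 bases apart, and 1049 for a window of Dll1. The window of Jag2 was 86.0% G and C, against 55.7% for Jag1 and between 56.3% and 73.0% for the other windows. The E-box CAGCTG, which MyoD can bind, was found in 3 members (Jag1, Dll1 and Nrarp) and in 16.3% of all windows. The core TGGGAA bound by RBPJ was found in none of the 7 members and in 25.6% of all windows, and the CArG box bound by SRF in none and in 1.63%. All motifs were searched on both strands, CACGNG and CAGCTG do not overlap here, and a match is a description of letters and not of a bound site.

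Library totals lay between 20901442 and 23543734 counts, so counting error mattered only for the weakest members. Srf itself, a check on the introduced gene, ran from 678 to 1673 CPM in the SRF libraries against 66.6 to 93.8 CPM in pMSCV, where CPM is the count after scaling to 1 common depth by TMM. It ran from 121 to 279 CPM in SRF-ICA1L and from 85.0 to 155 CPM in SRF-RELA, but from 71.8 to 105 CPM in SRF-FOXO1 and from 70.5 to 81.4 CPM in SRF-PDGFRB. The ranges of SRF-RELA, SRF-FOXO1 and SRF-PDGFRB overlapped that of pMSCV, so for these lines it gives no check of the label, and how far construct reads count towards mouse Srf is not known. All 8 myoblast markers on the list were in the table, with Myod1 at 5.69 to 111 CPM and Des at 44.5 to 892 CPM. Few listed markers of other cells were in the table: 2 of 5 endothelial, 1 of 5 blood, 1 of 5 epithelial, 1 of 4 fat and 1 of 4 bone. Those found were each at 5.33 CPM or less in every library, and Pecam1, Ptprc, Epcam, Adipoq and Sp7 were not analysed here. The summed level of the 8 myoblast markers was 1862 to 2243 CPM in pMSCV, 941 to 1620 in SRF, 603 to 1377 in SRF-ICA1L, 544 to 959 in SRF-RELA and 409 to 520 in SRF-FOXO1. The SRF-PDGFRB libraries stood far apart from each other, with a sum of 437 CPM in replicate 1 and 2558 CPM in replicate 2. Over 10 of 12 markers of differentiating muscle the sum was 169 to 347 CPM in pMSCV, 40.3 to 125 in SRF, 41.8 to 76.5 in SRF-FOXO1, 64.1 to 113 in SRF-ICA1L, 38.8 to 350 in the SRF-RELA line, with 11.3 and 737 CPM in SRF-PDGFRB. What part these marker levels have in the differences below was not tested. In such bulk libraries, fewer cells that express a gene and less RNA per cell cannot be told apart.

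Per length of transcript, Hes1 was the most abundant member, with a median over the 17 libraries of 79.3 RPKM (CPM per kilobase of merged exons). Notch2 followed at 18.6 RPKM, then Notch3 at 5.37, Notch1 at 3.67, Jag1 at 3.59, Jag2 at 3.51 and Hey1 at 2.22 RPKM. Dll1 at 0.30, Nrarp at 0.177 and Heyl at 0.0730 RPKM were the lowest, with Nrarp never above 17 counts in a library. This is an order of medians: each neighbouring pair in it overlapped across the libraries, and Hes1 was below Notch2 in some of them.

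**Figure D1:**
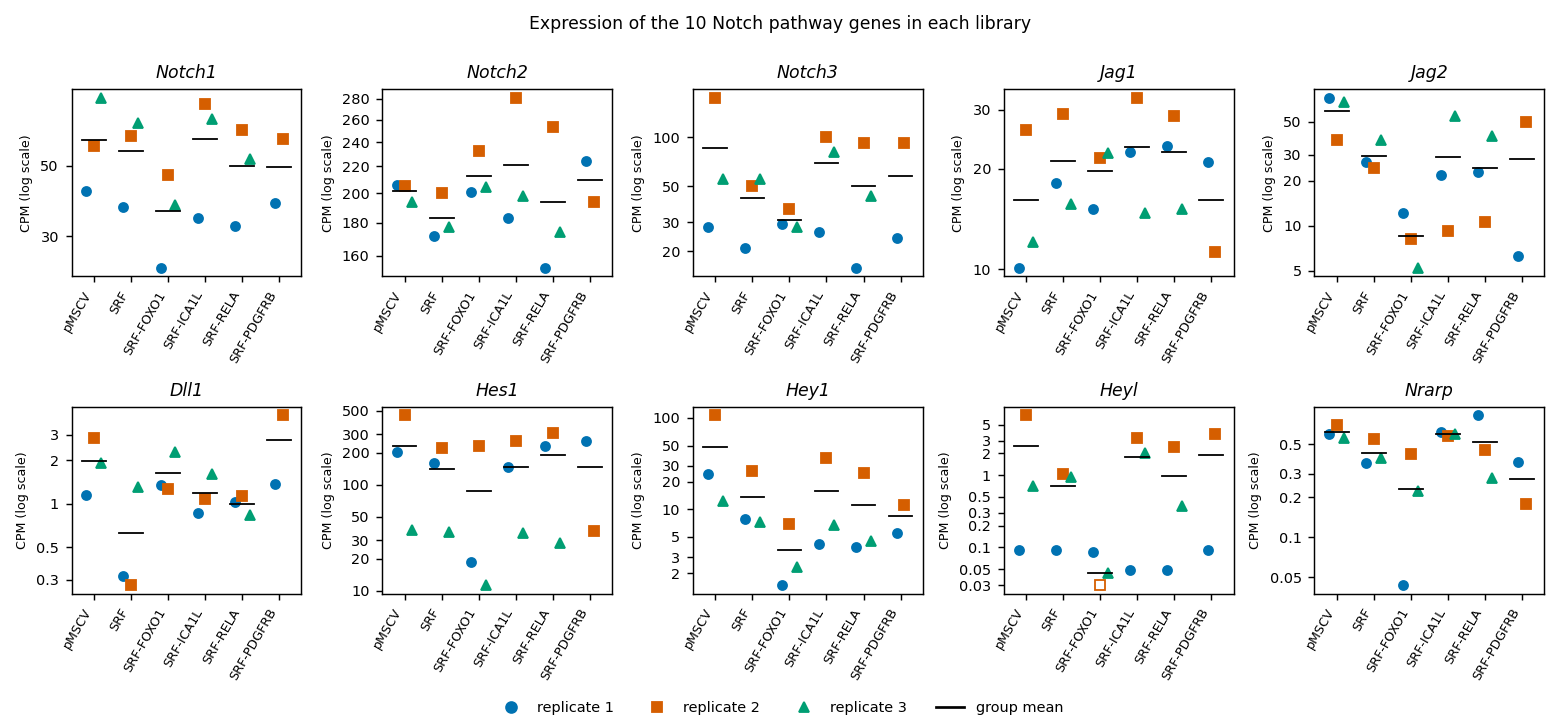
CPM of the 10 Notch pathway genes (log axis) in each library of the 6 lines, with 1 point per library, symbols for the replicate number and a line for the mean of the group. Notch2 stays between 153 and 281 CPM, while Hes1 differs 6.25 to 20.4-fold within each line, and the open square for Heyl stands for a count of 0.

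Gene positions are from GENCODE M21 on GRCm38. Among the receptors, Notch2 (ENSMUSG00000027878, chr3:98013527-98150361) was the steadiest member. Its libraries, in the order of replicates 1, 2 and 3, stood at 206, 205 and 194 CPM in pMSCV, 172, 200 and 177 in SRF, 201, 232 and 204 in SRF-FOXO1, 183, 281 and 198 in SRF-ICA1L and 153, 254 and 174 in the SRF-RELA line, with 225 and 194 CPM in SRF-PDGFRB. The highest library was 1.84 times the lowest, and the spread of its log2 CPM was wider than that of only 17.2% of all genes. Notch1 (ENSMUSG00000026923, chr2:26457903-26516663) stood at 41.5, 57.4 and 81.7 CPM in pMSCV, 37.1, 61.8 and 68.0 in SRF, 23.8, 46.8 and 37.5 in SRF-FOXO1, 34.1, 78.0 and 69.8 in SRF-ICA1L, 32.3, 64.8 and 52.3 in the SRF-RELA line, with 38.2 and 60.6 CPM in SRF-PDGFRB. Replicate 1 was the lowest library of Notch1 in all 6 lines, and every line overlapped pMSCV.

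Notch3 (ENSMUSG00000038146, chr17:32120820-32166852), the receptor best known from vascular smooth muscle, varied most of the receptors. It stood at 28.1, 175 and 55.9 CPM in pMSCV, 20.9, 50.2 and 55.5 in SRF, 29.5, 36.1 and 28.0 in SRF-FOXO1, 26.3, 101 and 81.5 in SRF-ICA1L, 15.8, 91.9 and 43.5 in the SRF-RELA line, with 24.2 and 92.2 CPM in SRF-PDGFRB. Replicate 2 was the highest library in every line but SRF, where replicate 3 was, and within pMSCV alone the libraries differed 6.23-fold. SRF-FOXO1 lacked that peak: its highest library was 1.29 times its lowest.

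Of the ligands, Jag2 (ENSMUSG00000002799, chr12:112907819-112929776) had the largest fold between the means of the lines. It stood at 72.4, 37.9 and 67.4 CPM in pMSCV, 26.7, 24.4 and 37.5 in SRF, 12.2, 8.11 and 5.22 in SRF-FOXO1, 22.0, 9.24 and 54.9 in SRF-ICA1L, 22.9, 10.5 and 40.1 in the SRF-RELA line, with 6.29 and 49.7 CPM in SRF-PDGFRB. All SRF and SRF-FOXO1 libraries lay below every pMSCV library, while the other 3 fusions overlapped pMSCV through 1 high library each. Jag1 (ENSMUSG00000027276, chr2:137081456-137116644) stood at 10.1, 26.2 and 12.1 CPM in pMSCV, 18.2, 29.2 and 15.7 in SRF, 15.1, 21.5 and 22.3 in SRF-FOXO1, 22.4, 32.6 and 14.7 in SRF-ICA1L, 23.4, 28.7 and 15.1 in the SRF-RELA line, with 20.9 and 11.3 CPM in SRF-PDGFRB. Its lines all overlapped. Dll1 (ENSMUSG00000014773, chr17:15367354-15376872) was low throughout, at 1.15, 2.82 and 1.92 CPM in pMSCV, 0.318, 0.274 and 1.31 in SRF, 1.35, 1.27 and 2.27 in SRF-FOXO1, 0.867, 1.07 and 1.60 in SRF-ICA1L, 1.03, 1.14 and 0.839 in the SRF-RELA line, with 1.38 and 4.09 CPM in SRF-PDGFRB. In counts this is 6 to 30 reads per library in SRF and 25 to 64 in pMSCV.

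The targets Heyl, Hes1 and Hey1 had the widest spread of log2 CPM among the members. Hes1 (ENSMUSG00000022528, chr16:30064384-30067796) stood at 203, 453 and 37.6 CPM in pMSCV, 162, 224 and 35.8 in SRF, 147, 261 and 34.8 in SRF-ICA1L and 233, 310 and 28.1 in SRF-RELA. Replicate 3 was the lowest and replicate 2 the highest library in each of these 4 lines. In SRF-FOXO1 it stood at 18.7, 229 and 11.2 CPM, low in replicate 1 as well, and in SRF-PDGFRB at 256 and 36.3 CPM, where replicate 2 lay near the third replicates of the other lines. The highest of the 17 libraries was 40.3 times the lowest, and 98.5% of all genes had a narrower spread of log2 CPM.

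Hey1 (ENSMUSG00000040289, chr3:8663359-8667256) stood at 24.6, 108 and 12.3 CPM in pMSCV, 7.86, 26.2 and 7.23 in SRF, 1.48, 6.89 and 2.36 in SRF-FOXO1, 4.19, 36.6 and 6.68 in SRF-ICA1L, 3.87, 25.2 and 4.57 in the SRF-RELA line, with 5.56 and 11.3 CPM in SRF-PDGFRB. Replicate 2 was the highest library in all 6 lines. SRF, SRF-ICA1L and SRF-RELA lay below pMSCV at each replicate number, and SRF-FOXO1 and SRF-PDGFRB did not overlap pMSCV at all. From the lowest to the highest library the level differed 72.6-fold.

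Heyl (ENSMUSG00000032744, chr4:123233556-123249875) rested on few reads, so its counts are given: 2, 154 and 15 in pMSCV, 2, 23 and 22 in SRF, 2, 0 and 1 in SRF-FOXO1, 1, 74 and 45 in SRF-ICA1L, 1, 54 and 8 in the SRF-RELA line, with 2 and 83 in SRF-PDGFRB. Replicate 1 had at most 2 counts in every line, and in SRF-FOXO1 the other replicates were as low. Nrarp (ENSMUSG00000078202, chr2:25180758-25183339) had 13, 16 and 12 counts in pMSCV, 8, 12 and 9 in SRF, 1, 9 and 5 in SRF-FOXO1, 13, 13 and 13 in SRF-ICA1L, 17, 10 and 6 in the SRF-RELA line, with 8 and 4 in SRF-PDGFRB. These few reads leave wide error on any ratio of Nrarp.

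For 8 of the 10 members, the replicate number in the titles took a larger share of the variation than the line did. Medians over all genes had the same order, 49.6% for replicate number and 19.5% for the line. For how many of all genes this order holds was not counted. In 4 lines (SRF-RELA, SRF-ICA1L, SRF and pMSCV, 12 libraries) same-numbered libraries resembled each other across all genes, and the lines were picked for that reason. An additive model of line and replicate number was fitted to them with edgeR's quasi-likelihood test. Replicate number passed at a Benjamini-Hochberg adjusted p under 0.05 for 8 of the 10 members, all but Dll1 and Nrarp, against 52% of all genes. Because the lines were picked for this resemblance, a high share is built into the choice. Summed myoblast markers did not follow the number in 1 way: they were highest in replicate 3 of pMSCV (2243 CPM), SRF (1620) and SRF-ICA1L (1377), and in replicate 2 of SRF-RELA (959 CPM).

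**Figure D2:**
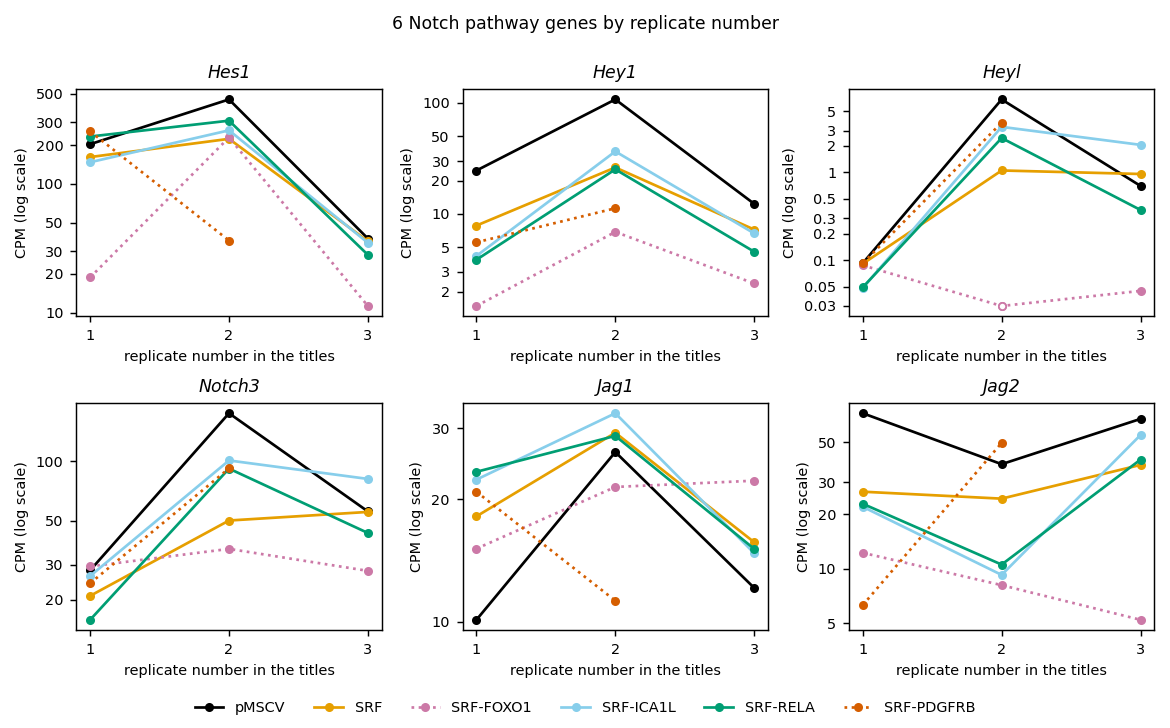
CPM (log axis) of 6 Notch pathway genes against the replicate number in the titles, with 1 colour per line; lines only join the libraries of 1 line, and dotted lines mark SRF-FOXO1 and SRF-PDGFRB, which did not enter the test of replicate number. In the 4 solid lines, Hes1 is lowest in replicate 3, Hey1 highest in replicate 2 and Heyl lowest in replicate 1, and an open point for Heyl stands for a count of 0.

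Hes1 showed the closest tie to the number. Over the 4 lines its mean was 186 CPM in replicate 1, 312 in replicate 2 and 34.1 CPM in replicate 3, and replicate number took 95.8% of the variance of its log2 CPM, against 1.93% for the line (edgeR, adjusted p = 3.31e-05). Hey1 followed a different course, with means of 10.1, 48.9 and 7.71 CPM (adjusted p = 0.000157), so replicate 2 stood 2.38 above replicate 1 on the log2 scale and replicate 3 at -0.09. Its shares were 65.4% for replicate number and 29.9% for the line.

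Heyl and Notch3 were low in replicate 1 and high in replicate 2. Notch3 had means of 22.8, 105 and 59.1 CPM (adjusted p = 0.00080, edgeR) and Heyl means of 0.0701, 3.40 and 1.02 CPM (adjusted p = 0.00086). Notch1 was low in replicate 1 alone, with means of 36.3, 65.5 and 68.0 CPM (adjusted p = 0.0012). The ligands went opposite ways: Jag1 was highest in replicate 2 (18.5, 29.2 and 14.4 CPM, adjusted p = 0.0023) and Jag2 was lowest there (36.0, 20.5 and 50.0 CPM, adjusted p = 0.0068). Notch2 passed with the smallest change, 179, 235 and 186 CPM (adjusted p = 0.035, edgeR).

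Dll1 (adjusted p = 0.24) and Nrarp (adjusted p = 0.56, edgeR) did not pass, and both rest on few reads. Across all genes the median share of variance was 49.6% for replicate number and 19.5% for the line. Notch1, Notch3, Jag1, Hes1, Hey1, Heyl and Notch2 lay above the first of these medians, and Jag2, with 45.7%, Nrarp and Dll1 below it. Leaving out each of the 12 libraries in turn left 7 or 8 members called, against 36.9% to 56.1% of all genes. Notch2 was the member lost, without SRF replicate 1 or any library of SRF-ICA1L or SRF-RELA. With all 17 libraries in the model, 5 members passed: Notch1, Notch3, Hes1, Hey1 and Heyl, against 8.17% of all genes.

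**Figure D3:**
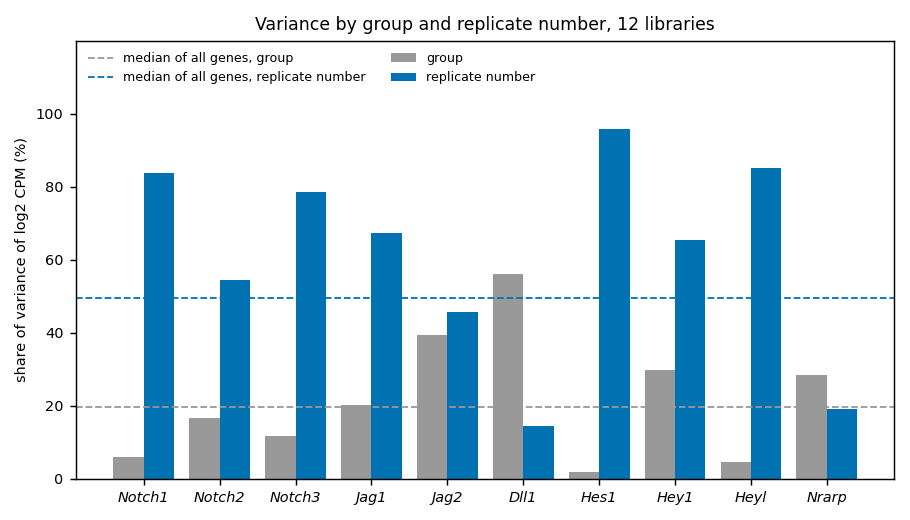
Share of the variance of log2 CPM (percent) taken by the line and by replicate number for each Notch pathway gene in the 12 libraries of SRF-RELA, SRF-ICA1L, SRF and pMSCV; dashed lines give the medians over all genes. Replicate number takes 95.8% for Hes1 and 14.3% for Dll1, the gene with the largest share for the line (56.0%).

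The series compares the lines, and each was set against the empty vector in 1 fit of all 17 libraries with no term for replicate number (edgeR's quasi-likelihood test, called at an adjusted p under 0.05 over 15062 genes). The 5 comparisons share the pMSCV libraries, so their results are not independent. In this fit 0 of the 10 members were called in any of them. A test of any difference among the 6 lines also called 0 members, with 0 under an unadjusted 0.05, and 0.0797% of all genes; DESeq2 called 0, with 3 under an unadjusted 0.05.

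SRF-FOXO1 gave the largest differences. Its median log2 fold change over the 10 members was -1.42, with or without Heyl, against 0.00 over all genes, with 8 members below 0 and 2 above. Jag2 averaged 8.53 CPM against 59.2 in pMSCV, a log2 fold change of -2.80 (SE 0.75, adjusted p = 0.069, edgeR). Hey1 averaged 3.58 CPM against 48.2, a log2 fold change of -3.75 (SE 1.12, adjusted p = 0.090). For both genes each SRF-FOXO1 library lay below every pMSCV library, as was also so for Nrarp. How many of all genes separate in this way was not counted for this or any other comparison. Heyl separated in CPM only through scaling, since replicate 1 had 2 counts in both lines. The replicate numbers of SRF-FOXO1 and pMSCV do not pair, so no ratios by number are given. Neither Jag2 nor Hey1 passed the threshold. Called were 0 members, against 0.71% of all genes, while 4 members and 20.9% of all genes had an unadjusted p under 0.05.

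DESeq2 called 3 members lower in SRF-FOXO1: Jag2 (adjusted p = 0.0022), Hey1 (adjusted p = 0.0027) and Heyl (adjusted p = 0.015). The share of all genes that DESeq2 called is not given here, and the 0.71% above is that of edgeR. Heyl had 3 counts over the SRF-FOXO1 libraries and 171 over the pMSCV libraries, a ratio of 57.8 with an exact 95% interval of 19.4 to 283 that covers counting error only. That ratio comes from replicates 2 and 3, since replicate 1 had 2 counts in both lines. Nrarp had 1, 9 and 5 counts against 13, 16 and 12 (log2 fold change -1.43, adjusted p = 0.19, edgeR). Notch1 (-0.74), Notch3 (-1.47) and Hes1 (-1.42) had lower means and overlapping libraries, and Notch2 (0.07) and Jag1 (0.28) the only values above 0. The summed myoblast markers, 409 to 520 CPM against 1862 to 2243, did not overlap between these lines either.

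SRF alone had 9 members below 0 and 1 above, with a median of -0.86 against -0.02 over all genes. Called were 0 members and 0.00664% of all genes, with 1 member, Dll1, and 3.34% of all genes under an unadjusted 0.05 (DESeq2 called 0, with 2 under 0.05). Dll1 averaged 0.633 CPM against 1.96 in pMSCV, a log2 fold change of -1.62 (SE 0.60, adjusted p = 0.99, edgeR). The values of Jag2 (-1.0), Notch3 (-1.03) and Hey1 (-1.81) were also below 0. With a term for replicate number in the 12 libraries, 0 members were called against 0.0137% of all genes, and 6 members and 15.1% of all genes had an unadjusted p under 0.05. In that fit Hey1 was at -1.52 (SE 0.28, adjusted p = 0.098, edgeR), and it was 3.13, 4.10 and 1.71-fold lower than in pMSCV at replicates 1, 2 and 3. Without pMSCV replicate 3 the adjusted p for Hey1 became 0.026, at a log2 fold change of -1.83, and without each of the other 5 libraries it was 0.21 to 0.32.

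In SRF-RELA, Hey1 and Jag2 had lower means than in pMSCV, and both passed the test only with replicate number in the model. The fit without it put Hey1 at -2.10 (SE 1.04) and Jag2 at -1.27 (SE 0.71) and called 0 members and 0% of all genes. Under an unadjusted 0.05 were 0 members and 8.05% of all genes (DESeq2 called 0, with 1 member under 0.05). With replicate number, in the 12 libraries, 2 members were called lower and 0 higher, against 6.48% of all genes. An unadjusted p under 0.05 was found for 4 members and 22.4% of all genes. The lines and the term for replicate number were chosen from these same data, which the p-values do not allow for. Hey1 averaged 11.2 CPM against 48.2 in pMSCV, a log2 fold change of -2.08 (SE 0.29, adjusted p = 0.0042, edgeR), and it was 6.37, 4.27 and 2.70-fold lower at replicates 1, 2 and 3. This call was kept with each library of the 2 lines left out in turn, at adjusted p-values from 0.0017 to 0.037. Jag2 averaged 24.5 CPM against 59.2, a log2 fold change of -1.42 (SE 0.33, adjusted p = 0.032, edgeR), and was 3.17, 3.59 and 1.68-fold lower. That call was kept only without pMSCV replicate 3 and lost without any of the other 5 libraries, at adjusted p-values from 0.072 to 0.13. The median over the members was -0.50, against 0.01 over all genes. Summed myoblast markers were also lower in SRF-RELA, at 544 to 959 CPM.

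In SRF-ICA1L, Hey1 had a lower mean than in pMSCV and passed the test only with replicate number in the model. Without it Hey1 was at -1.61 (SE 1.02), and 0 members and 0% of all genes were called. Under an unadjusted 0.05 were 0 members and 6.23% of all genes, and DESeq2 called 0 members, also with 0 under 0.05. With replicate number, 1 member was called, against 2.99% of all genes: Hey1, at 15.8 against 48.2 CPM, a log2 fold change of -1.65 (SE 0.29, adjusted p = 0.016, edgeR). Hey1 was 5.88, 2.94 and 1.85-fold lower at replicates 1, 2 and 3. An unadjusted p under 0.05 was found for 4 members and 19% of all genes. The call was lost without pMSCV replicate 1 (adjusted p = 0.074), SRF-ICA1L replicate 1 (0.076) or SRF-ICA1L replicate 2 (0.080). Jag2 missed the threshold at -1.29 (SE 0.33, adjusted p = 0.068, edgeR), and passed it without pMSCV replicate 3 (0.035) or SRF-ICA1L replicate 3 (0.031). Jag1 had a higher mean, 23.3 against 16.1 CPM (0.57, adjusted p = 0.14), and Notch1 (-0.02), Heyl (-0.05) and Nrarp (-0.04) had fitted values near 0. Summed myoblast markers ran from 603 to 1377 CPM.

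In SRF-PDGFRB 0 members were called, against 0.0199% of all genes. Under an unadjusted 0.05 were 0 members and 7.7% of all genes (DESeq2 called 0, with 1 member under 0.05). Its libraries disagreed: Jag2 stood at 6.29 and 49.7 CPM, Hes1 at 256 and 36.3 CPM, and Notch3 at 24.2 and 92.2 CPM, as the summed markers did. Hey1, at 5.56 and 11.3 CPM, lay below all pMSCV libraries (log2 fold change -2.52, SE 1.24, adjusted p = 0.67, edgeR). Dll1 had its highest level of the series, 4.09 CPM, in replicate 2.

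**Figure D4:**
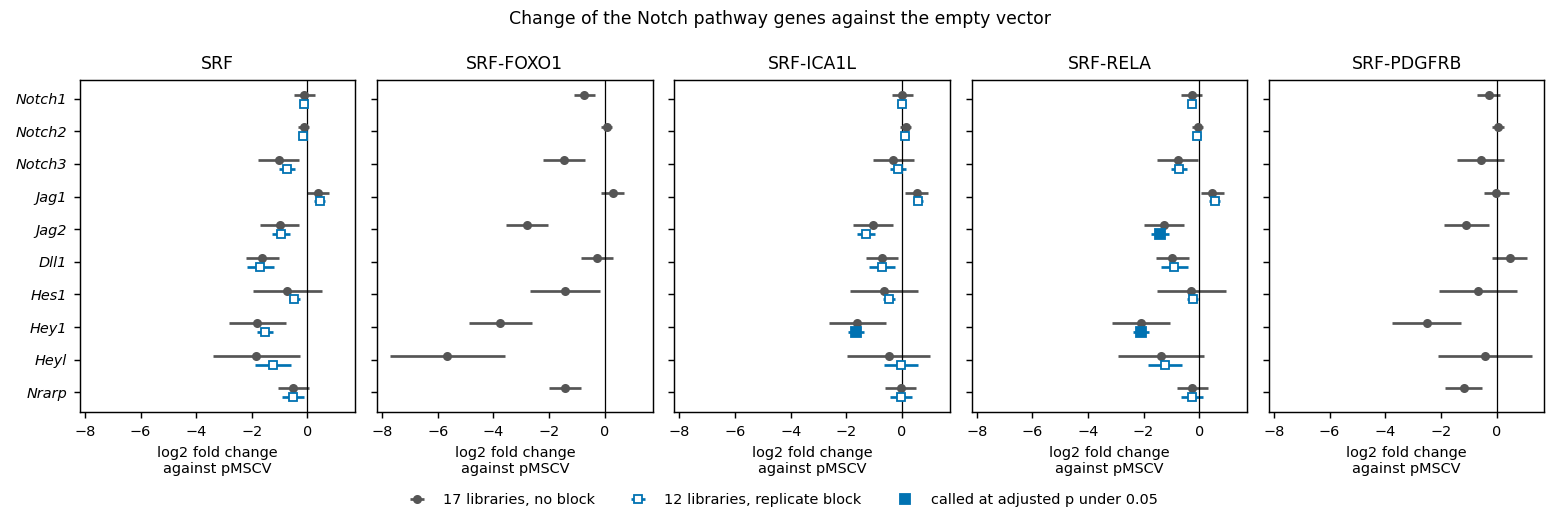
Log2 fold change of each Notch pathway gene against pMSCV (points) with its standard error (bars), for the 5 lines that express SRF or a fusion; grey points are the fit of 17 libraries without replicate number, blue squares the fit of 12 libraries with it, and filled squares the calls, all on 1 scale. Hey1 lies left of 0 in every panel, at -3.75 in SRF-FOXO1, and is filled in SRF-ICA1L and SRF-RELA, while Notch2 stays near 0; the Heyl point of SRF-FOXO1 rests on 3 counts.

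Each fusion was also set against SRF in place of the empty vector, and these 4 comparisons share the SRF libraries. In the fit without replicate number 0 members were called in each. Of all genes, 0.00664% were called for SRF-FOXO1, 0% for SRF-ICA1L, 0.00664% for SRF-RELA and 0.0531% for SRF-PDGFRB. Members with an unadjusted p under 0.05 numbered 2, 0, 0 and 1 in that order with edgeR, against 19.2%, 1.56%, 3.21% and 5.03% of all genes. With DESeq2, which also called 0, they numbered 4, 0, 0 and 1.

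In SRF-FOXO1, Jag2 averaged 8.53 CPM against 29.5 in SRF (log2 fold change -1.79, SE 0.73, adjusted p = 0.22, edgeR), and Hey1 3.58 against 13.8 CPM (-1.95, SE 1.05, adjusted p = 0.31). Neither gene overlapped between these lines, and neither did Notch2, with the share of all genes that separate not counted. Heyl separated in CPM only through scaling, since replicate 1 had 2 counts in both lines. Notch2 was higher in SRF-FOXO1, at a log2 fold change of only 0.22 (adjusted p = 0.53, edgeR). Same-numbered libraries of SRF-FOXO1 and SRF resembled each other across all genes, so replicate number was added for the pair of lines alone. Hey1 was then called, at -1.95 (SE 0.24, adjusted p = 0.043, edgeR), as 1 of 8 members tested and against 1.57% of all genes; Heyl and Nrarp were not tested because of their low counts. It was 5.30, 3.81 and 3.06-fold lower at replicates 1, 2 and 3. The call was lost without SRF replicate 1 or 3 or SRF-FOXO1 replicate 1 or 3, at adjusted p-values from 0.055 to 0.26. Without SRF or SRF-FOXO1 replicate 2, Hes1 was called as well (adjusted p = 0.048 and 0.045). Jag2 stood at -1.82 (SE 0.36, adjusted p = 0.058) in that fit, and it passed, at -1.77 (adjusted p = 0.045), with the pair of lines fitted alone without replicate number. Heyl had 3 counts against 47, a ratio of 15.6 with an exact 95% interval of 5.03 to 78.5 for counting error. Dll1 was 1.63 against 0.633 CPM in the opposite direction (1.35, adjusted p = 0.24).

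Against SRF, neither SRF-ICA1L nor SRF-RELA gave a call. With replicate number in the 12 libraries 0 members were called in either, against 0.0956% of all genes for the first and 0.656% for the second, and 0 had an unadjusted p under 0.05. Hey1, called in both against pMSCV, was at -0.13 (SE 0.29, adjusted p = 0.92, edgeR) in SRF-ICA1L and -0.56 (SE 0.29, adjusted p = 0.35) in SRF-RELA against SRF. Hes1 was at 0.01 (SE 0.20) and 0.24 (SE 0.20), and Jag2 at -0.33 (SE 0.33) and -0.46 (SE 0.33). In SRF-PDGFRB, Dll1 averaged 2.74 CPM against 0.633, a log2 fold change of 2.10 (SE 0.65, adjusted p = 0.82, edgeR), resting on 30 and 92 counts.

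Of 67 other genes listed for the pathway, 54 were in the table. Notch4, Dll4, Dlk1, Hey2 and Hes5 were not analysed here. The fit without replicate number called 0 of the 54 in each of the 9 comparisons. The DNA-binding partner of the receptor, Rbpj, was steady, between 59.4 and 82.2 CPM over the 17 libraries, and its log2 fold changes against pMSCV ran from -0.04 to 0.16. Replicate number did not pass for Rbpj (adjusted p = 0.59, edgeR) and passed for 25 of the 54 genes, against 52% of all genes. By role these were 2 of 6 ligand-like genes, 5 of 15 genes of glycosylation and processing, 6 of 12 of endocytosis and turnover, 11 of 19 of the nuclear complex and 1 of 2 genes listed as other targets. Lfng, which encodes a glycosyltransferase that modifies Notch receptors, was among them (adjusted p = 0.0018, edgeR), as was Hes6 (adjusted p = 0.033). Hes6 was listed with the other targets, and whether Notch acts on it in these cells was not tested.

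With replicate number in the 12 libraries, Neurl1a and Numb were the genes of this list that passed against pMSCV: Neurl1a in SRF-ICA1L, where 2.99% of all genes were called, and both in SRF-RELA, where 6.48% were. As a share of the 54 genes neither count is above that of all genes. Neurl1a, which encodes a ubiquitin ligase of the Neuralized family that acts on Notch ligands, fell in SRF-ICA1L (log2 fold change -1.42, SE 0.27, adjusted p = 0.025, edgeR) and in SRF-RELA (-1.63, SE 0.28, adjusted p = 0.0090). The call in SRF-RELA was kept with each library of the 2 lines left out in turn (adjusted p from 0.0034 to 0.042), and that in SRF-ICA1L was lost without pMSCV replicate 1 or any SRF-ICA1L library (0.063 to 0.13). Neurl1a was at -1.17 in SRF (adjusted p = 0.16), and at -2.95 in SRF-FOXO1 in the fit of 17 libraries (adjusted p = 0.074). Numb, which encodes an inhibitor of Notch, rose in SRF-RELA by 0.44 (SE 0.11, adjusted p = 0.042), a call lost without any 1 of the 6 libraries (0.061 to 0.16). In SRF-ICA1L its value was 0.39 (adjusted p = 0.095).

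Genes with the most similar course over the 17 libraries were listed for Hey1, Heyl and Jag2, the members with the widest range between lines, by Pearson's r of log2 CPM. These values describe libraries that share lines and replicate numbers. Heyl was closest to another member, Notch3 (r = 0.94), followed by Nckap5l (0.92) and Bin3 (0.89). Hey1 was closest to Ist1 (0.94), Arid5a (0.91) and Tmem151a (0.90). For Jag2 they were Hhip, which encodes the hedgehog-interacting protein (0.96), Chrnb1, a subunit of the acetylcholine receptor of muscle (0.96), and Daam1 (0.96), a formin.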

How the data were processed

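Expression was measured by RNA sequencing in 17 C2C12 libraries (TruSeq Stranded mRNA kit, NovaSeq instrument, per the labels' protocols). Per the submitters' processing notes, reads were handled with FastQC 0.11.8, Trimmomatic 0.39, HISAT2 and featureCounts of Subread 2.0.0 on GRCm38; the annotation and the use of strand are not given in the sources used here, so reads of overlapping or antisense genes could have been split in unknown ways. The authors deposited raw counts per gene, in 1 table in which every gene had at least 10 counts in 3 or more libraries.

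Counts were scaled by TMM and tested with edgeR 4.0.16 (quasi-likelihood, robust, with R 4.3.3 and limma 3.58.1), with Benjamini-Hochberg adjustment and a threshold of 0.05. The fit of 17 libraries tested 15062 genes. With replicate number, 14639 genes were tested in the 12 libraries and 13949 in SRF-FOXO1 and SRF alone. Shares of all genes are of the genes tested in the fit named. The SE is the log2 fold change divided by the square root of F. The biological coefficient of variation was 36.5%. Gene coordinates and exon lengths come from GENCODE M21 (GRCm38), promoters from RefSeq. Scripts were tested on simulated data. Alternatives were RLE size factors, DESeq2 1.42.0, other filters, smaller sets of libraries, replicate blocks and libraries left out.

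Whether replicate numbers pair libraries was checked by correlating deviations from group means across genes. In SRF-RELA, SRF-ICA1L, SRF and pMSCV r was 0.392 to 0.789 for the 18 same-numbered pairs and at most 0.114 for the 36 others. For SRF-FOXO1 with SRF it was 0.220, 0.253 and 0.330, and with pMSCV 0.170, -0.195 and 0.013. The labels do not say what a number marks, so the pairing comes from these correlations. A fit with the replicate number as a block was therefore made in those lines. Its p-values, also for comparisons of lines, do not allow for this choice from the same data.

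The 10 members, the lists and the tests were chosen with earlier results of these data known. Named were all members, pathway genes called in a comparison, a fixed set (Rbpj, Notch4, Dll4, Dlk1, Lfng, Hey2, Hes5, Hes6), and for the 3 members with the widest range of group means, since fewer than 3 members were called, the 3 most correlated genes with a mean of at least 100 counts (log2 CPM, prior count 2).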

Additional observations from a re-analysis of the deposited data

How the results depend on the processing

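With RLE size factors, no filter or a filter of 1 CPM in 3 libraries, every count of called members was as in the fit reported. DESeq2 called 3 members (not 0) in SRF-FOXO1 against pMSCV and the same number as edgeR elsewhere. With a replicate block over all 17 libraries, where the numbers of SRF-FOXO1 and SRF-PDGFRB do not pair with the rest, SRF-FOXO1 against pMSCV had 4 members called (Notch1 at -0.75, adjusted p = 0.028, Jag2, Hey1 and Heyl), SRF-PDGFRB 1 (Hey1 at -2.38, adjusted p = 0.048), the test of any difference 1 and replicate number 5 (8.17% of all genes). The 8.17% holds for replicate number alone. Shares of all genes for the other counts of that fit, and for DESeq2, are not given here, so those counts have no background beside them. The replicate block in 12 libraries gave 2 calls in SRF-RELA and 1 in SRF-ICA1L, and the block in SRF-FOXO1 and SRF alone gave 1, as did those lines alone without it. The block changed no other call. With it kept and libraries left out in turn, chosen after seeing the data, the calls ranged from 0 to 1 for SRF, 0 to 2 for SRF-ICA1L and 1 to 2 for SRF-RELA against pMSCV, and from 0 to 2 in SRF-FOXO1 against SRF. The cause was not tested. No result reversed past the threshold: 83 single-gene values changed sign under an alternative, none of them called. Heyl, Nrarp and Dll1 are limited by their few reads.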
